A study of Mus musculus with 11 samples.

Results

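The aminoacyl-tRNA synthetases are the enzymes that attach each amino acid to its transfer RNA. They were followed by their transcripts in aTC1-6 cells, a mouse line of immortalised, glucagon-making pancreatic alpha cells. The members were chosen by gene symbol, as the cytosolic and mitochondrial synthetases of the mouse genome. There were 37 of them among the 53947 gene rows of the table, 20 cytosolic and 17 mitochondrial. All 37 passed the filter on low counts that left 14133 genes to be tested. The groups below were compared, each grown in the normal medium of the line and transfected while being plated at 70% confluency: 3 libraries with a scramble control (SCR), 4 with knockdown of Mettl3 (M3KD) and 4 with knockdown of Mettl14 (M14KD). RNA was collected 72 h after knockdown for all 11 libraries. The sources used here do not name the knockdown reagent. Whether the replicates came from separate cultures is not stated in the labels, so the p-values cover only the spread between these samples, part of which may be technical. The values come from 1 cell line.

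Each synthetase recognises its own amino acid, activates it with ATP and joins it to the tRNAs that carry its anticodons, so a cell needs a full set for translation. Mammals keep separate nuclear genes for the mitochondrial enzymes, whose symbols end in 2, and use them to charge the tRNAs of mitochondrial translation. Gars and Kars each give both forms from a single gene, Eprs joins the glutamyl and prolyl enzymes in a single protein, and the cytosolic phenylalanyl enzyme is built from Farsa and Farsb. In the cytosol, 8 synthetase genes (Dars, Eprs, Iars, Kars, Lars, Mars, Qars and Rars) encode members of the multi-synthetase complex, which is held together by the scaffold proteins Aimp1, Aimp2 and Eef1e1. Several cytosolic synthetase genes are known targets of ATF4, the transcription factor that is made when amino acids are scarce or proteins misfold and eIF2 is phosphorylated. Alpha cells are known for their response to amino acids, which drive glucagon release and alpha cell growth. The enzyme that adds the m6A mark, N6-methyladenosine, to messenger RNA has Mettl3 and Mettl14 at its core. The design sets the loss of either subunit against the same control.

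The libraries held 19576632 to 22406527 estimated counts, of which 78927 to 96441 fell on the 37 synthetase genes. Levels are given as CPM, a gene's counts over the library total on the usual CPM scale, with TMM scaling between libraries. Mettl3 was at 14.9 ± 1.02 CPM in the scramble libraries and 5.34 ± 0.449 CPM in M3KD, and Mettl14 at 25.2 ± 1.70 CPM in the scramble libraries and 14.7 ± 0.720 CPM in M14KD (SD, n = 3 and 4). Mettl14 was also higher in M3KD, at 29.3 ± 1.02 CPM (0.22 ± 0.06 on the log2 scale, edgeR adjusted p = 0.00494). The glucagon transcript Gcg stood at 28700 to 38700 CPM in every library, while the beta cell gene list summed to 50.3 to 73.7 CPM. Most of that sum was Nkx6-1, at 48.9 to 72 CPM, and Ins1 and Ins2 were at most 0.096 and 0.05 CPM. Scramble replicate 2 stood apart. It was the shallowest library, its alpha cell marker list summed to 41100 CPM against 45500 to 53400 in the other 10 libraries, and 12 markers of airway, lung and blood summed to 115 CPM against 1.98 to 5.61 elsewhere. A list of 10 mesenchymal, endothelial and immune markers summed to 51.6 CPM in it against 7.84 to 14.5 elsewhere. Against the mean of the other scramble libraries it was lower in Hars (−0.32 on the log2 scale), Sars (−0.27), Lars2 (−0.21), Rars (−0.19), Dars (−0.19) and Nars (−0.18), and higher in Yars2 (0.31) and Farsb (0.15). The part these markers play in the results was not tested. Results that rest on this library are therefore given with and without it. RNA was taken from whole cultures, so fewer cells of a kind and less RNA per cell cannot be told apart.

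In the scramble cells the cytosolic genes stood well above the mitochondrial ones. Levels of different genes are compared per kilobase (CPM per kb) of the annotated transcript with the longest coding sequence. The SD is over the 3 scramble libraries. The glycyl enzyme gene Gars was highest, at 187 ± 8.67 CPM per kb, followed by the seryl enzyme gene Sars at 128 ± 13.5 and the asparaginyl enzyme gene Nars at 83.6 ± 6.02, and these 3 did not overlap. From Nars through Eprs, Wars, Kars and Dars to the valyl enzyme gene Vars (71.9 ± 2.27 CPM per kb), neighbours in the order overlapped. Another run of overlapping neighbours went from Aars (54.0 ± 0.597 CPM per kb) through Rars, Farsb, Hars and Yars to Mars (41.5 ± 2.62). The lower end was better resolved: Lars (33.1 ± 2.23 CPM per kb), Iars (29.5 ± 0.666), Tars (21.9 ± 1.18), Qars (16.6 ± 1.22) and the cysteinyl enzyme gene Cars (13.0 ± 0.557) were each apart from the next, while Farsa (36.0 ± 1.63) overlapped Lars.

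Among the mitochondrial genes the leucyl enzyme gene Lars2 led with 27.6 ± 2.35 CPM per kb. Iars2 (19.5 ± 0.496 CPM per kb), Tars2 (18.7 ± 1.35) and Rars2 (18.7 ± 0.842) came next and overlapped as neighbours. Further down, Yars2, Cars2, Sars2, Vars2 and Nars2 lay between 9.34 and 10.5 CPM per kb with overlapping neighbours. Hars2, Aars2, Ears2 and Fars2 lay between 6.11 and 7.86 CPM per kb. The prolyl, tryptophanyl and methionyl enzyme genes, Pars2 (3.25 ± 0.105 CPM per kb), Wars2 (3.10 ± 0.184) and Mars2 (2.86 ± 0.125), were lowest, and neighbours among them overlapped. The cytosolic gene exceeded its mitochondrial partner per kb in all 18 gene pairs, where Fars2 was set against Farsa and Farsb and Eprs against Ears2 and Pars2, from a ratio of 1.17 for Tars over Tars2 and 1.2 for Lars over Lars2 to 24.7 for Wars over Wars2 and 25.1 for Eprs over Pars2. The transcript used by these cells was not measured, so the order per kb and the ratios depend on the annotated length. The annotated transcript of Mars2 is 11294 bases long, of which 1758 are coding. Before division by length Mars2 was at 32.3 CPM in scramble, above Pars2 (9.89 CPM) and Wars2 (13.7 CPM).

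**Figure D1:**
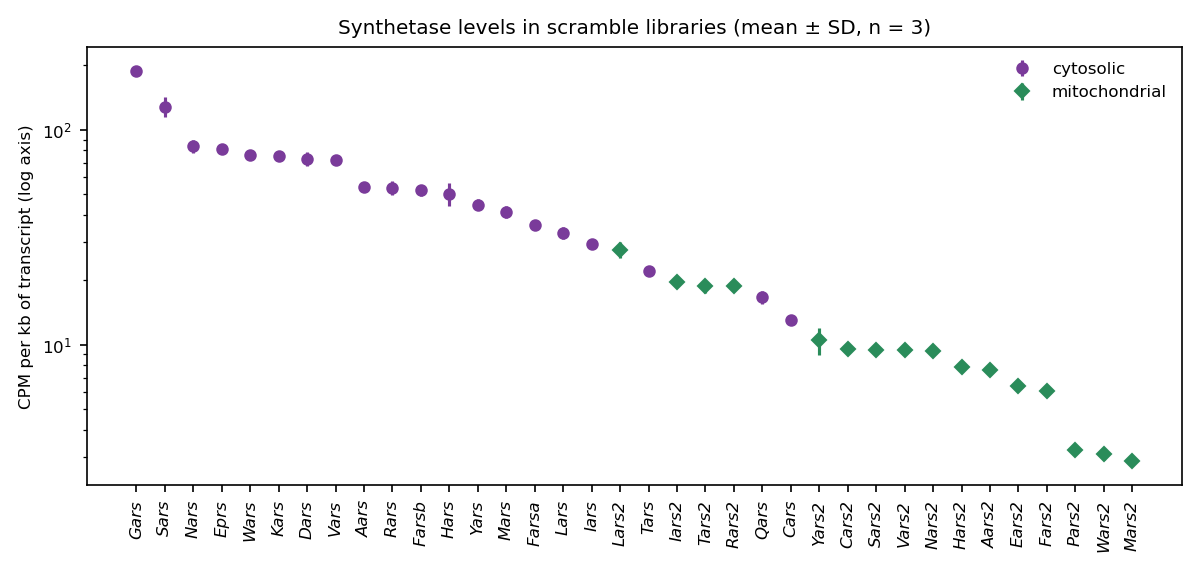
Level of the synthetase genes in the scramble libraries, in CPM per kb of transcript on a log axis. Points are means and bars the SD over 3 libraries, with cytosolic genes as purple circles and mitochondrial genes as green diamonds. Gars is highest at 187 CPM per kb and Mars2 lowest at 2.86.

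Knockdown of Mettl3 left 14 of the 37 synthetase transcripts higher than in scramble, by at most 25.5%. These were 7 cytosolic and 7 mitochondrial genes, 23 genes did not pass the test, and 0 were lower by edgeR, DESeq2 or limma-voom, nor at an unadjusted edgeR p under 0.05. The 14 higher genes made up 37.8% of the members. Over all 14133 genes tested, 31.3% passed in this comparison, 15.5% higher and 15.8% lower. The total share passing was near that of all genes tested. The calls of the members were all in 1 direction, and no test was run of that. Tests were edgeR's quasi-likelihood F-tests, adjusted by Benjamini and Hochberg over all genes tested with a threshold of 0.05, and the SE of a log2 fold change follows the ± sign. Log2 fold changes ran from −0.09 to 0.33 and 30 of 37 were above 0. The median was 0.10 over the members, 0.07 over the cytosolic and 0.12 over the mitochondrial genes, beside −0.00391 over all genes tested. In 14 genes the M3KD libraries did not overlap the scramble libraries, beside 35.5% of all genes tested.

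The histidyl enzyme gene Hars rose most. It stood at 107, 86.3 and 108 CPM in the scramble libraries and at 127, 125, 123 and 129 CPM in M3KD, a log2 fold change of 0.33 ± 0.06, or 25.5% (edgeR adjusted p = 0.00131). All 4 M3KD libraries lay above all 3 scramble libraries, of which replicate 2 was the lowest. Without scramble replicate 2 the log2 fold change was 0.23 (edgeR adjusted p = 1.96e-06). Hars and its mitochondrial partner Hars2 lie head to head on opposite strands with overlapping exons, and the sources used here do not say whether counting used strand, so reads of the pair may be split between them.

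Of the 8 genes of the multi-synthetase complex, 4 rose in M3KD. Iars, which charges isoleucine tRNA, went from 133, 127 and 131 CPM in scramble to 141, 151, 142 and 142 CPM, a log2 fold change of 0.14 ± 0.03 (edgeR adjusted p = 0.00217). Kars, the lysyl enzyme of cytosol and mitochondria, went from 163, 165 and 168 to 179, 181, 173 and 189 CPM (0.13 ± 0.03, edgeR adjusted p = 0.00765). Neither gene's groups overlapped, and each difference was about as large without scramble replicate 2 (0.12 and 0.13). The glutamyl-prolyl enzyme gene Eprs, with the highest mean of the complex per kb, was at 399.8, 383 and 416 CPM in the scramble libraries and 427, 446, 435 and 425 CPM in M3KD (0.12 ± 0.03, edgeR adjusted p = 0.00926). Its groups did not overlap either. The arginyl enzyme gene Rars, at 117, 103 and 119 CPM in the scramble libraries and 117, 130.3, 124 and 126 CPM in M3KD, passed with 0.14 ± 0.05 (edgeR adjusted p = 0.0292), although M3KD replicate 1 lay among the scramble libraries. The call of Rars ended without scramble replicate 2 (0.08, edgeR adjusted p = 0.116) and without M3KD replicates 2, 3 or 4 (edgeR adjusted p = 0.0909, 0.0556 and 0.0734), and with only the 2 groups fitted (0.0576). The other 4 complex genes did not pass, with log2 fold changes of −0.02 for Dars, 0.02 for Mars, 0.04 for Lars and 0.13 for Qars. Exons of Mars overlap the stress gene Ddit3 on the opposite strand.

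Outside the complex, 3 of 12 cytosolic genes rose: Hars, Wars and Farsa. The tryptophanyl enzyme gene Wars was at 135, 144 and 140.0 CPM in the scramble libraries and at 154, 152, 153 and 151 CPM in M3KD (0.13 ± 0.03, edgeR adjusted p = 0.00507). Farsa, the catalytic subunit of the phenylalanyl enzyme, was at 66.3, 62.5 and 68.4 CPM in the scramble libraries and 73.0, 71.7, 71.8 and 70.0 CPM in M3KD (0.12 ± 0.04, edgeR adjusted p = 0.015). Both genes were above scramble in every M3KD library, but the call of Farsa ended without scramble replicate 2 (0.09, edgeR adjusted p = 0.0734). The partner subunit Farsb had a log2 fold change of 0.05 and did not pass, but without that library it passed at 0.10 (edgeR adjusted p = 0.0187). The other 8 genes outside the complex lay between −0.05 for Yars and 0.11 for Nars, and none passed. Gars, the gene with the highest level, was at −0.04 (edgeR adjusted p = 0.336).

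Among the mitochondrial genes, 7 of 17 rose in M3KD. Ears2, the glutamyl enzyme which loads glutamate also onto the mitochondrial glutamine tRNA, was at 12.8, 12.9 and 13.95 CPM in the scramble libraries and 15.4, 15.4, 16.3 and 16.1 CPM in M3KD, 19.7% higher (0.26 ± 0.06, edgeR adjusted p = 0.00315). The threonyl enzyme gene Tars2 went from 42.4, 43.7 and 48.5 to 56.1, 51.4, 51.0 and 49.8 CPM (0.21 ± 0.05, edgeR adjusted p = 0.00253). Mars2, which charges the single mitochondrial methionine tRNA, went from 33.3, 30.7 and 33.0 to 35.8, 37.1, 41.5 and 39.7 CPM (0.25 ± 0.06, edgeR adjusted p = 0.00482). In these 3 genes every M3KD library exceeded every scramble library, and the calls of Ears2, Tars2 and Mars2 held under each of the 17 alternatives run. Exons of Ears2 overlap Ubfd1 on the opposite strand.

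The seryl enzyme gene Sars2 was at 16.8, 18.4 and 17.9 CPM in the scramble libraries and 21.0, 20.2, 19.9 and 20.4 CPM in M3KD (0.20 ± 0.06, edgeR adjusted p = 0.00815, but 0.0511 without scramble replicate 1). Hars2 was at 25.6, 26.6 and 26.5 CPM and 30.7, 29.1, 29.1 and 27.3 CPM (0.15 ± 0.05, edgeR adjusted p = 0.031). All M3KD libraries of both genes lay above the scramble libraries. The phenylalanyl enzyme gene Fars2 was at 12.7, 12.6 and 13.7 CPM in the scramble libraries and 15.1, 14.7, 14.1 and 15.1 CPM in M3KD (0.18 ± 0.06, edgeR adjusted p = 0.0312). The alanyl enzyme gene Aars2 was at 25.3, 25.2 and 26.2 CPM and 28.3, 26.7, 27.9 and 30.2 CPM (0.14 ± 0.05, edgeR adjusted p = 0.0402). The calls of these last 3 genes were borderline. DESeq2 on all libraries did not call Hars2, Fars2 or Aars2 (DESeq2 adjusted p = 0.0733, 0.104 and 0.0933), although its log2 fold changes were 0.15, 0.18 and 0.14. It called 5 mitochondrial genes in M3KD in place of 7, Lars2 among them. With no filter on low counts Fars2 and Aars2 were not called (edgeR adjusted p = 0.0615 and 0.0532), nor was Aars2 with only the 2 groups fitted (0.0613). That of Hars2 ended without scramble replicate 1 or M3KD replicates 1, 2 or 3, with edgeR adjusted p of 0.1, 0.0978, 0.0565 and 0.0572. That of Fars2 ended without scramble replicates 1 or 2 or M3KD replicates 1, 2 or 4 (edgeR adjusted p = 0.0994, 0.107, 0.067, 0.0517 and 0.0712). That of Aars2 ended without scramble replicates 1 or 2 or M3KD replicates 1, 3 or 4 (edgeR adjusted p = 0.0955, 0.0816, 0.0669, 0.0552 and 0.139). Lars2, at 109.7, 97.4 and 115 CPM in the scramble libraries and 126, 133, 109.8 and 143 CPM in M3KD, spread widely and did not pass (0.25 ± 0.09, edgeR adjusted p = 0.076). Rars2 (0.12), Wars2 (0.10), Nars2 (0.06), Iars2 (0.05), Pars2 (0.05), Yars2 (0.02), Vars2 (0.01) and Cars2 (−0.09) did not pass.

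Without scramble replicate 2, 11 synthetase genes were higher in M3KD, 6 cytosolic and 5 mitochondrial, beside 15.3% of all genes tested. Then 3 cytosolic genes were called lower: Dars (−0.08), Sars (−0.09) and Yars (−0.09), with edgeR adjusted p of 0.0419, 0.0338 and 0.04. The 7 mitochondrial genes became 3 without scramble replicate 1 and 4 without M3KD replicate 1.

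**Figure D2:**
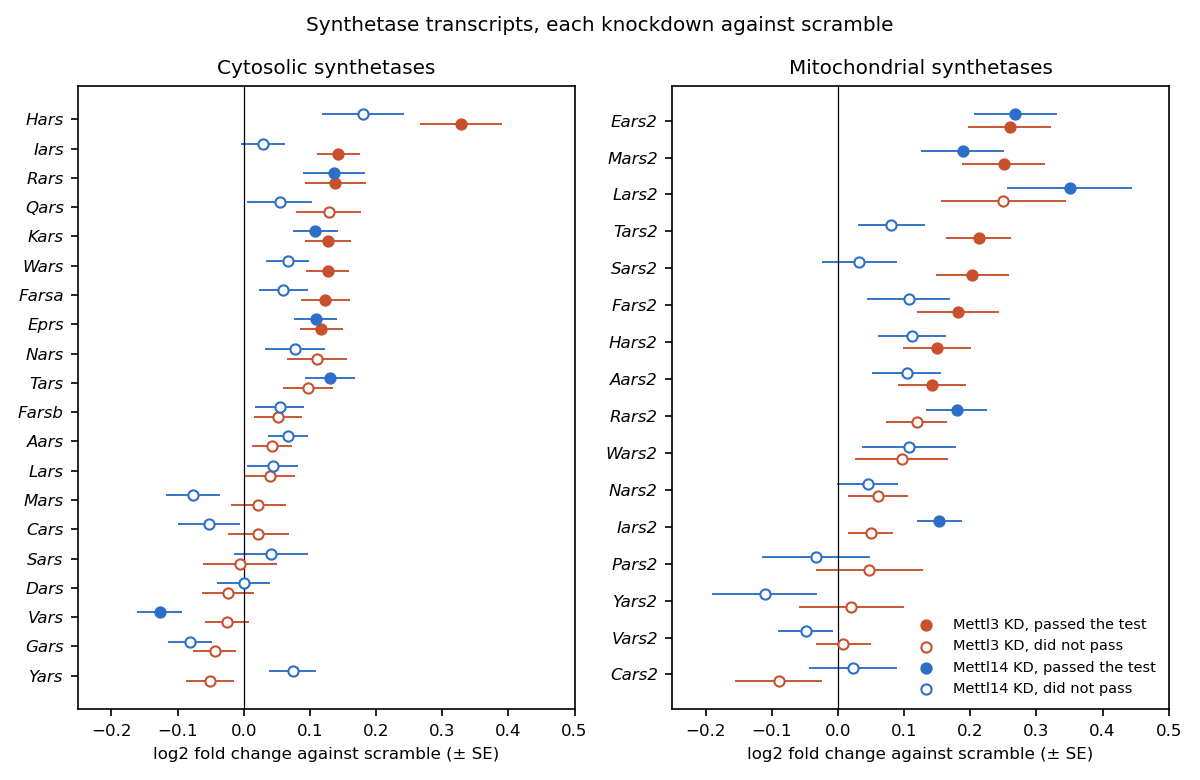
Log2 fold change of the synthetase genes in each knockdown against scramble, cytosolic genes on the left and mitochondrial genes on the right, ordered by the Mettl3 KD value. Bars are SE, orange is Mettl3 KD and blue Mettl14 KD, and filled points passed the test. In Mettl3 KD 14 genes passed, all to the right of 0, and in Mettl14 KD 9 passed to the right and Vars to the left.

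Knockdown of Mettl14, compared with the same 3 scramble libraries, gave 9 higher synthetase genes and 1 lower one. The 9 higher genes, 4 cytosolic and 5 mitochondrial, were 24.3% of the members, while 10.1% of all genes tested were higher, 10.8% lower and 20.9% called in either direction. Log2 fold changes ran from −0.13 to 0.35 and 28 of 37 were above 0. The median was 0.07 over the members, 0.06 over the cytosolic and 0.10 over the mitochondrial genes, beside 0.000324 over all genes tested. In 13 genes the M14KD libraries did not overlap the scramble libraries, beside 28.9% of all genes tested.

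In the multi-synthetase complex, 3 of 8 genes rose in M14KD. Eprs was at 436, 425, 435 and 427 CPM in M14KD, 0.11 ± 0.03 on the log2 scale against scramble (edgeR adjusted p = 0.0217), and Kars at 177, 178, 173 and 185 CPM (0.11 ± 0.03, edgeR adjusted p = 0.03). Rars was at 125, 124, 129 and 119 CPM (0.14 ± 0.05, edgeR adjusted p = 0.0431). In all 3 genes the M14KD libraries lay above the scramble libraries, those of Rars narrowly. Iars, by contrast, was at 133, 134, 132 and 135 CPM, next to scramble values of 127 to 133 CPM, and did not pass (0.03 ± 0.03, edgeR adjusted p = 0.575). The calls of these 3 genes were borderline. With only scramble and M14KD fitted none of them passed (edgeR adjusted p = 0.0659 for Eprs, 0.0535 for Kars and 0.0815 for Rars), and limma-voom did not call Rars (limma adjusted p = 0.0573). The call of Eprs also ended without M14KD replicates 1 or 3 (edgeR adjusted p = 0.0516 and 0.0572), and that of Kars without scramble replicate 1 or M14KD replicates 2 or 4 (0.0794, 0.0571 and 0.0868). That of Rars ended without scramble replicate 2 (0.08, edgeR adjusted p = 0.161), M3KD replicates 3 or 4 (0.0602 and 0.0606), or M14KD replicates 1, 2 or 3 (0.0861, 0.0799 and 0.117).

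Outside the complex, the threonyl enzyme gene Tars was at 86.8, 83.7 and 93.0 CPM in the scramble libraries and rose to 98.8, 94.0, 94.3 and 97.6 CPM in M14KD (0.13 ± 0.04, edgeR adjusted p = 0.0173). No M14KD library overlapped scramble, but the call ended without scramble replicate 2 (0.10, edgeR adjusted p = 0.0567) and with only the 2 groups fitted (0.13, edgeR adjusted p = 0.052), so that this fit called 0 of the 20 cytosolic genes higher. Vars, the valyl enzyme that binds elongation factor 1, fell from 284, 301 and 287 CPM in scramble to 268, 262, 269 and 267 CPM in M14KD, 8.44% lower (−0.13 ± 0.03, edgeR adjusted p = 0.00956). All 4 M14KD libraries lay below all 3 scramble libraries, and the call held under each of the 17 alternatives run. In M3KD Vars was at 290.0, 276, 279 and 298 CPM and did not pass (−0.03 ± 0.03, edgeR adjusted p = 0.607). Hars, which had the largest difference in M3KD, was at 108, 116, 114 and 117 CPM in M14KD (0.18 ± 0.06, edgeR adjusted p = 0.0577), and was called higher by DESeq2 and limma-voom. Without scramble replicate 2, Hars was at 0.08 in M14KD (edgeR adjusted p = 0.092). The other 9 genes outside the complex lay between −0.08 for Gars and 0.08 for Nars, and none passed. The 5 remaining complex genes, Dars, Iars, Lars, Mars and Qars, ran from −0.08 to 0.05. Without scramble replicate 2, Mars was called lower at −0.12 (edgeR adjusted p = 0.0118) and Farsb higher at 0.10 (edgeR adjusted p = 0.0239).

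The 5 mitochondrial genes that rose in M14KD were Lars2, Ears2, Mars2, Rars2 and Iars2. The isoleucyl enzyme gene Iars2 went from 108, 103 and 108 CPM in scramble to 121, 121, 119 and 114 CPM in M14KD (0.15 ± 0.03, edgeR adjusted p = 0.00268), with 112, 112, 109 and 108 CPM in M3KD (0.05 ± 0.03, edgeR adjusted p = 0.283). Ears2 was at 16.7, 15.4, 15.2 and 16.4 CPM in M14KD, 20.4% above scramble (0.27 ± 0.06, edgeR adjusted p = 0.00418). The arginyl enzyme gene Rars2 went from 33.4, 34.6 and 36.5 to 37.7, 39.9, 39.3 and 41.0 CPM (0.18 ± 0.05, edgeR adjusted p = 0.00806). None of these 3 overlapped scramble, and their calls held under each of the 17 alternatives. Exons of Iars2 overlap Rab3gap2 on the opposite strand.

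Lars2 had the largest difference of any synthetase gene in M14KD. It was at 140.3, 126, 135 and 147 CPM, beside 109.7, 97.4 and 115 CPM in scramble, 27.5% higher (0.35 ± 0.09, edgeR adjusted p = 0.0293). Mars2 was at 34.3, 41.1, 35.1 and 37.2 CPM (0.19 ± 0.06, edgeR adjusted p = 0.0398). Both genes lay above scramble in every M14KD library. Both calls were borderline. That of Lars2 ended with no filter on low counts (edgeR adjusted p = 0.0546), and that of Mars2 by limma-voom (limma adjusted p = 0.0599) and with only the 2 groups fitted (edgeR adjusted p = 0.0589). Lars2 also lost its call without scramble replicates 1 or 2 (edgeR adjusted p = 0.0648 and 0.114) or M14KD replicates 1, 3 or 4 (0.0611, 0.052 and 0.0601). Mars2 also lost it without scramble replicates 2 or 3 (0.114 and 0.0612), M3KD replicate 4 (0.0515) or M14KD replicates 2 or 4 (0.134 and 0.0776). The 12 other mitochondrial genes did not pass, with log2 fold changes from −0.11 for Yars2 to 0.11 for Hars2.

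Of the 17 mitochondrial genes, 5 rose in M14KD as fitted, 3 without scramble replicate 2 and 3 without M14KD replicate 4. Of the 20 cytosolic genes, 4 rose as fitted, and 2 without M14KD replicate 2 or M14KD replicate 3. The 1 lower gene became 2 without scramble replicate 1 and without scramble replicate 2. With all groups kept but scramble replicate 2 left out, 9.34% of all genes tested were higher in M14KD. The median log2 fold change in M14KD was then 0.0231 over the cytosolic and 0.0845 over the mitochondrial genes.

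**Figure D3:**
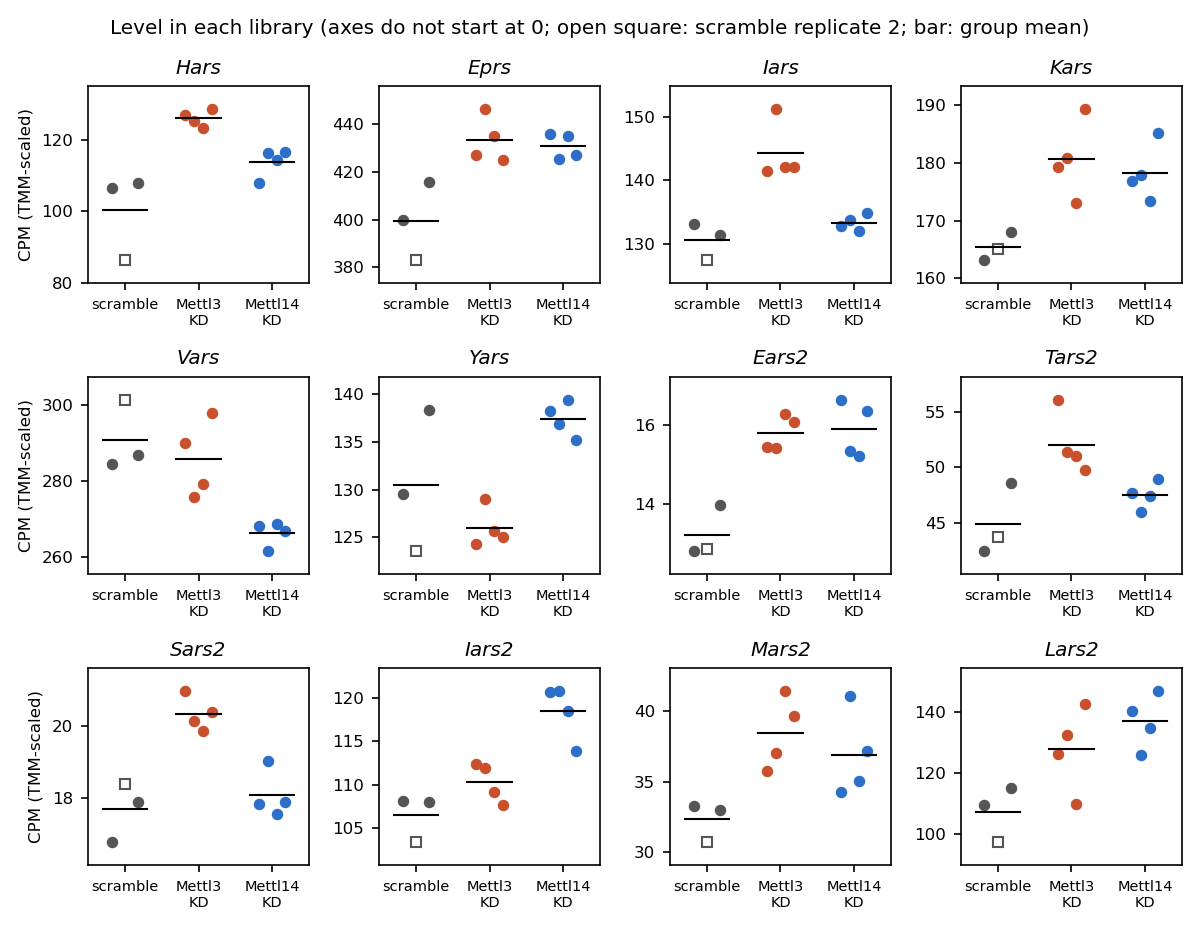
CPM of 12 synthetase genes in each of the 11 libraries, with scramble in grey, Mettl3 KD in orange and Mettl14 KD in blue. The bar is the group mean, the open square is scramble replicate 2, and the vertical axes do not start at 0. In the panel of Hars the Mettl3 KD libraries sit between 123 and 129 CPM and scramble replicate 2 at 86.3, and in the panel of Vars the Mettl14 KD libraries sit between 262 and 269 CPM, below scramble.

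Set directly against each other, the knockdowns differed in 5 of 37 synthetase genes (13.5%), beside 8.1% of all genes tested. The 3 that were higher in M3KD than in M14KD were Iars (0.11 ± 0.03, edgeR adjusted p = 0.0227), Sars2 (0.17 ± 0.05, edgeR adjusted p = 0.0422) and Vars (0.10 ± 0.03, edgeR adjusted p = 0.0469). Over all genes tested 3.66% were higher and 4.44% lower. Sars2 was at 17.8, 19.05, 17.6 and 17.9 CPM in M14KD, close to scramble. The 2 that were lower in M3KD were Yars (−0.13 ± 0.03, edgeR adjusted p = 0.0214) and Iars2 (−0.10 ± 0.03, edgeR adjusted p = 0.0434). The tyrosyl enzyme gene Yars was at 124, 129, 126 and 125 CPM in M3KD and 138, 137, 139 and 135 CPM in M14KD beside 129.6, 124 and 138 CPM in scramble, whose libraries spread over both ranges. The knockdown groups of Yars did not overlap, and Yars did not pass against scramble in either knockdown (−0.05 and 0.07). The median log2 difference was 0.03 over the members.

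These 5 calls were borderline. The count was 8 without scramble replicate 2, where 14.8% of all genes tested passed. It was 1, 2, 1 and 1 without M3KD replicates 1, 2, 3 and 4, and 0, 2, 0 and 2 without M14KD replicates 1, 2, 3 and 4, by edgeR's quasi-likelihood test. Over all genes, calls went from 1145 with all libraries to between 713 and 820 in these 8 fits. DESeq2 and limma-voom each called 3 in the complete set. Hars, higher in M3KD than in M14KD by 0.15 (edgeR adjusted p = 0.14), was called without scramble replicate 2 (edgeR adjusted p = 0.000238).

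Summed over the 17 mitochondrial genes, the level was 605, 591 and 626 CPM in scramble, 662, 660.35, 646 and 672 CPM in M3KD and 670.4, 661, 665 and 667 CPM in M14KD. Every knockdown library lay above every scramble library. The 20 cytosolic genes summed to 3461, 3355 and 3552 CPM in scramble, 3566, 3638, 3559.6 and 3624 CPM in M3KD and 3550.0, 3505, 3549 and 3557 CPM in M14KD. In M3KD all 4 libraries were above scramble, by little, and in M14KD they overlapped it. The ratio of cytosolic to mitochondrial sums was 5.69 ± 0.0256 in scramble, 5.45 ± 0.0694 in M3KD and 5.31 ± 0.0201 in M14KD (SD, n = 3, 4 and 4), with no overlap between scramble and either knockdown. The separation of the ratios was not kept over all libraries without Lars2. With Lars2 left out the mitochondrial sums were 494 to 511 CPM in scramble, 528 to 537 CPM in M3KD and 520.4 to 535 CPM in M14KD, still apart. The ratios were then 6.80 to 6.99, 6.63 to 6.89 and 6.55 to 6.83 and overlapped. That overlap came from scramble replicate 2, at 6.80. The other scramble libraries, at 6.99 and 6.96, lay above every knockdown library. Gars and Kars, which give both forms, were counted with the cytosolic genes. No test was run on these sums.

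**Figure D4:**
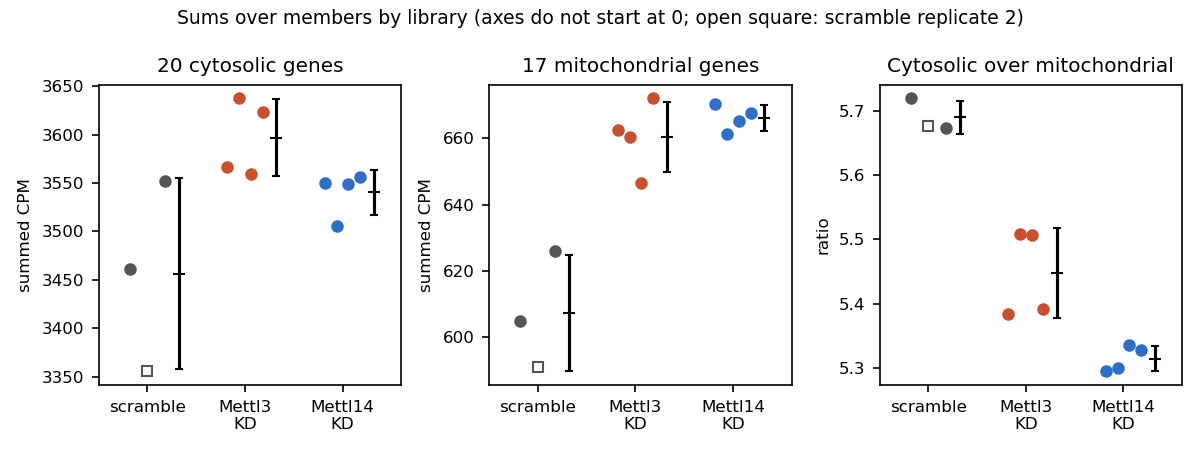
Summed CPM of the 20 cytosolic genes, of the 17 mitochondrial genes, and their ratio, for each library of scramble (grey), Mettl3 KD (orange) and Mettl14 KD (blue). Black marks are the group mean and SD, the open square is scramble replicate 2, and the vertical axes do not start at 0. Mitochondrial sums are at most 626 CPM in the scramble libraries and at least 646 CPM in the knockdowns.

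Genes whose products work beside the synthetases were counted in the same fits, and the background is again the 15.5% and 10.1% of all genes tested that were higher in M3KD and in M14KD. Of the 3 scaffold genes of the multi-synthetase complex, Eef1e1 rose in both knockdowns, from 40.0 ± 2.14 CPM in scramble (SD, n = 3) to 47.9 ± 0.318 in M3KD and 46.9 ± 2.15 in M14KD (n = 4 each), with log2 fold changes of 0.26 ± 0.05 and 0.23 ± 0.05 (edgeR adjusted p = 0.000196 and 0.0012). Aimp1 was at 0.10 in M3KD (edgeR adjusted p = 0.094) and passed in M14KD at 0.15 (edgeR adjusted p = 0.0195). Aimp2 was at 0.09 and 0.02 and did not pass. The count in M14KD went from 2 to 1 without scramble replicate 2 or M14KD replicate 4, and that in M3KD from 1 to 2 without scramble replicate 1 or M3KD replicate 3. The mitochondrial amidotransferase, which turns the glutamyl-tRNA made by Ears2 into glutaminyl-tRNA, is built from Qrsl1, Gatb and Gatc. Its catalytic subunit gene Qrsl1 rose from 22.4 CPM to 27.6 and 26.8 CPM (0.30 ± 0.06 and 0.26 ± 0.06, edgeR adjusted p = 0.000423 and 0.0029). Gatc rose in M3KD (0.19, edgeR adjusted p = 0.0201) and was at 0.05 in M14KD, while Gatb was at 0.05 and 0.05 and passed in neither. The M3KD count of 2 became 1 without scramble replicate 1, scramble replicate 3 or M3KD replicate 1.

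Of 9 genes listed as synthetase-related and editing proteins, 4 were higher in M3KD and 3 in M14KD. The list also held Pusl1 and Secisbp2, which are neither, and Pusl1 was among those higher in M3KD. Sepsecs, which makes selenocysteinyl-tRNA, rose in both (0.19 and 0.20, edgeR adjusted p = 0.00353 and 0.0051). Pusl1, a pseudouridine synthase-like gene, rose in M3KD (0.25 ± 0.05, edgeR adjusted p = 0.00119) and was at −0.03 in M14KD, and the knockdowns differed (edgeR adjusted p = 0.00116). The M3KD count of 4 became 2 without scramble replicate 1 or scramble replicate 2. Of 23 genes for tRNA end processing and export, 9 were higher and 2 lower in M3KD, and 5 higher and 3 lower in M14KD. Pop1, a subunit of the RNase that trims the 5′ end of tRNA, rose by 0.38 and 0.34 (edgeR adjusted p = 6.54e-05 and 0.000372). The 5 higher genes in M14KD became 8 without scramble replicate 2. The 3 lower genes in M14KD became 1 without scramble replicate 3 or M14KD replicates 2 or 4, and the 2 lower genes in M3KD became 1 without scramble replicate 3 or M3KD replicates 1, 3 or 4.

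Charged tRNAs are handed to elongation factors. Of 11 cytosolic elongation and release factor genes, 7 were higher in M3KD and 4 in M14KD, with medians of 0.16 and 0.05 on the log2 scale. Eef1d, a subunit of the exchange factor of elongation factor 1, rose from 136 to 158 CPM in M3KD and 148 CPM in M14KD (0.22 ± 0.03 and 0.13 ± 0.03, edgeR adjusted p = 2.24e-05 and 0.00642). The release factor gene Gspt1 rose by 0.19 and 0.10 (edgeR adjusted p = 5.9e-05 and 0.0194). Without scramble replicate 2, 1 gene of this list was lower in M14KD. Of 13 mitochondrial translation factor genes tested of 14, 10 were higher in M3KD and 3 in M14KD, with medians of 0.16 and 0.12. The M3KD count was 4 without scramble replicate 2, and 6 without M3KD replicate 1 or M3KD replicate 4. The M14KD count was 5 without scramble replicate 3. Gfm1, the mitochondrial elongation factor G, rose from 177 CPM to 198 and 209.8 CPM (0.16 ± 0.03 and 0.24 ± 0.03, edgeR adjusted p = 0.000338 and 5.51e-06), and 1700021F05Rik, also called Mtres1, by 0.30 and 0.22 (edgeR adjusted p = 0.000385 and 0.00783).

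Uncharged tRNA and other stresses act through phosphorylation of eIF2, which raises the translation of ATF4. Of 16 eIF2 pathway genes, 9 were higher and 2 lower in M3KD, and 4 higher and 1 lower in M14KD. Eif2b1, a subunit of the exchange factor that recycles eIF2, rose by 0.39 ± 0.04 and 0.21 ± 0.04 (edgeR adjusted p = 1.79e-07 and 0.000513). Ppp1r15a, the stress-induced subunit that directs a phosphatase to eIF2, fell from 74.3 CPM to 57.5 and 57.8 CPM (−0.37 ± 0.04 and −0.36 ± 0.04, edgeR adjusted p = 2.24e-07 and 4.97e-07). The 1 lower gene in M14KD became 2 without scramble replicate 2 or M14KD replicate 3. A list of 30 ATF4 and amino acid response genes that holds no synthetase gene gave 1 higher and 15 lower of 29 tested in M3KD, and 15 lower in M14KD, beside 15.8% and 10.8% of all genes tested that were lower. Its median log2 fold changes were −0.18 and −0.14, where those of the cytosolic synthetases were 0.07 and 0.06. Without scramble replicate 2 the list gave 1 higher and 12 lower in M3KD and 15 lower in M14KD. The medians of the list were then −0.15 and −0.15, and those of the cytosolic synthetases 0.06 and 0.02. Trib3, a pseudokinase that ATF4 induces, fell from 15.3 ± 0.652 CPM (SD, n = 3) to 8.71 ± 0.531 and 8.73 ± 1.38 CPM (n = 4 each), by 0.81 and 0.81 on the log2 scale (edgeR adjusted p = 9.25e-07 and 1.69e-06). The lipoprotein receptor gene Vldlr fell from 143 ± 3.24 CPM to 100.1 ± 5.39 and 95.3 ± 7.53 CPM, by 0.52 and 0.59 (edgeR adjusted p = 2.97e-06 and 1.29e-06). The list was not uniform, as 13 of its genes did not pass in M3KD and 14 in M14KD. Of its amino acid and one-carbon synthesis genes, Psat1 was the 1 higher in M3KD (0.11, edgeR adjusted p = 0.0123). Asns, Phgdh, Psph, Shmt2, Mthfd2 and Aldh18a1 passed in neither knockdown, while Pycr1 and Gpt2 were lower in both.

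ATF4 acts through a composite element, so the promoters of the synthetase genes were searched for it. The letters TGATGNAA were sought on both strands of RefSeq windows of 250 bases before to 50 bases after each gene's start (GRCm38.p6), which were at hand for 13 of 20 cytosolic and 14 of 17 mitochondrial genes. The element was found in 5 of the 13 cytosolic windows (38.5%), those of Aars, Gars, Iars, Tars and Yars, and in 0 of the 14 mitochondrial windows. It was found in 4.51% of all 27025 genes with a window, and in 3.97% of all 32851 windows, as some genes have several. It was in 8 of the 26 amino acid response genes with a window (30.8%). Aars held it at positions −112 to −105 and 10 to 17, Gars at −30 to −23, Iars at 8 to 15, Tars at −15 to −8 and Yars at 4 to 11, counted from 1 at the gene's first base, with the base before it as −1. A match is a description of the letters and not a site shown to be used. The 5 synthetase windows are shown 5′ to 3′ on the strand of the gene, with the matches in capitals, followed by those of Trib3 and Nupr1 from the amino acid response list, which carry the same letters and fell.
Aars, chr8:111033592-111033891, plus strand: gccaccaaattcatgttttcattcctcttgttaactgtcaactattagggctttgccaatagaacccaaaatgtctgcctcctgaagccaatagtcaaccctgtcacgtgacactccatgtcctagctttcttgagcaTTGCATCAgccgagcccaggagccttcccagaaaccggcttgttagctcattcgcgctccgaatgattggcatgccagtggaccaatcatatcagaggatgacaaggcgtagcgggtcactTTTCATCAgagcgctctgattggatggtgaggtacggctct
Gars, chr6:55037751-55038050, plus strand: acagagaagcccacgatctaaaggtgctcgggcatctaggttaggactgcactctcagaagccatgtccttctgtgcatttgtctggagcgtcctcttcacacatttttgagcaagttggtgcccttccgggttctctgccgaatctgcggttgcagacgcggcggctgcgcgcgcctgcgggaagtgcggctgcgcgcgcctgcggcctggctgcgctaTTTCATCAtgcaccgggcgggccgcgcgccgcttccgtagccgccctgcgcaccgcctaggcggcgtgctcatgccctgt
Iars, chr13:49681880-49682179, plus strand: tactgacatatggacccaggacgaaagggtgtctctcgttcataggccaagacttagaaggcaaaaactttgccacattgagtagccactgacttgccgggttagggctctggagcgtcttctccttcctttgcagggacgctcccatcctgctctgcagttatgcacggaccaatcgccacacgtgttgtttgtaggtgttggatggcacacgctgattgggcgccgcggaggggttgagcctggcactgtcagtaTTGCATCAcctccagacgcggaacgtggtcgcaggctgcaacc
Tars, chr15:11399609-11399908, minus strand: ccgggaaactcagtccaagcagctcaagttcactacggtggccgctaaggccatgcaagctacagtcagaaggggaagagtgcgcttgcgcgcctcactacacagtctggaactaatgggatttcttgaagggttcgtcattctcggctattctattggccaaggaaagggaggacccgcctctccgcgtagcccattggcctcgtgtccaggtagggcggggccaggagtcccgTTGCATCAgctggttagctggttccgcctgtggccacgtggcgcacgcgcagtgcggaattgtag
Yars, chr4:129189653-129189952, plus strand: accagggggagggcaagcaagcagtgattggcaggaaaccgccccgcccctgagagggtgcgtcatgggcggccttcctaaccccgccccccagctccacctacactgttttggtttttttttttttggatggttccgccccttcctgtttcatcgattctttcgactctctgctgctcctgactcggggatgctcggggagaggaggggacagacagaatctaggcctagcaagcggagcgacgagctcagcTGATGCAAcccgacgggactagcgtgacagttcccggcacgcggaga
Trib3, chr2:152344011-152344310, minus strand: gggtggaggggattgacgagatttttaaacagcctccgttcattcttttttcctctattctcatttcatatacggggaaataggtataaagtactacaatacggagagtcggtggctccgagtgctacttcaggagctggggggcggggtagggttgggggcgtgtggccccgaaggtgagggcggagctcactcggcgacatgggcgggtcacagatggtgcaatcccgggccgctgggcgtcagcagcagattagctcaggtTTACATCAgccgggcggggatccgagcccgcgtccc
Nupr1, chr7:126625421-126625720, minus strand: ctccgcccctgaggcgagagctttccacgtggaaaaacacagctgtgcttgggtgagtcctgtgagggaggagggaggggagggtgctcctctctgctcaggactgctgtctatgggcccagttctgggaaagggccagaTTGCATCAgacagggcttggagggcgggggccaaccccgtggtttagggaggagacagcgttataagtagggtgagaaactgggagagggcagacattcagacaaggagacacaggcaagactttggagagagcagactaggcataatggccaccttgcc

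The synthetase genes and the amino acid response genes that hold these letters are set side by side here. Among the 5 synthetase genes with the element, 1 was higher in M3KD (Iars) and 1 in M14KD (Tars), and the median log2 fold changes were 0.04 and 0.07. Aars was at 309.6, 308 and 315 CPM in scramble, 319, 318, 315 and 329 CPM in M3KD and 326, 316, 327 and 332 CPM in M14KD (0.04 and 0.07), and its knockdown libraries lay just above scramble without passing the test. Gars was at 424, 465 and 447 CPM, 430.2, 430.2, 437 and 430.4 CPM and 417, 410.5, 431 and 427 CPM (−0.04 and −0.08), and its groups overlapped. Of the 8 amino acid response genes with the element, 6 were lower in M3KD and 7 in M14KD, with medians of −0.49 and −0.55. Nupr1, a stress-induced chromatin protein, fell by 0.93 and 0.67 on the log2 scale (edgeR adjusted p = 2.06e-06 and 0.000117), and Asns, the asparagine synthetase gene, did not pass (0.01 and −0.08). Among the 8 cytosolic synthetase genes whose window lacked the element, 3 were higher in M3KD and 2 in M14KD, with medians of 0.08 and 0.05. Among the 18 list genes without it, 8 were lower in M3KD and 7 in M14KD, with medians of −0.13 and −0.10. Cars, Hars, Lars, Nars, Rars, Vars and Wars had no window and so are in neither cytosolic group. Of these, Hars, Rars and Wars were higher in M3KD, and in M14KD Rars was higher and Vars lower. The difference between the gene sets was not tested.

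**Figure D5:**
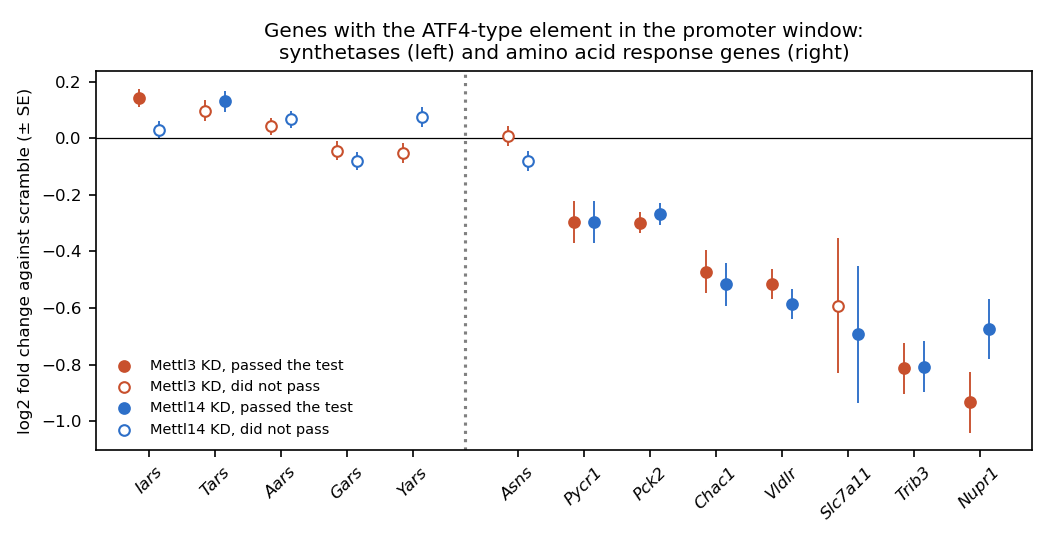
Log2 fold change against scramble of the genes whose promoter window holds the element, with 5 synthetase genes left of the dotted line and 8 amino acid response genes right of it. Bars are SE, orange is Mettl3 KD and blue Mettl14 KD, and filled points passed the test. The synthetase genes lie between −0.08 and 0.14 and the response genes reach −0.93 for Nupr1.

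No m6A was measured in these libraries. The letters GGACT, the DNA form of a frequent m6A consensus, were sought in each gene's transcript with the longest coding sequence. They occurred in 17 of 20 cytosolic and 16 of 17 mitochondrial synthetase genes. The median was 1.09 per kb for the cytosolic genes and 1.11 per kb for the mitochondrial genes. They occurred in 91.5% of the 12215 tested genes with a coding transcript, at a median of 1.04 per kb. By this measure of sequence the synthetase transcripts were close to all tested transcripts. Exons of 14 members overlap another annotated gene, 9 of them a protein-coding gene on the opposite strand, and the levels of these genes are uncertain to that extent.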

How the data were processed

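Messenger RNA was sequenced from 3 scramble, 4 M3KD and 4 M14KD libraries, prepared as stranded libraries per the labels' protocols. The authors deposited expected counts per gene, and kallisto is named in the submitters' processing notes. The sources used here do not give its version, the genome build, the annotation, the use of strand or the summing to genes. Of the deposited estimated counts 11.5% were not whole; they were rounded. Symbols were matched for 48651 of 53947 gene rows. Transcript lengths came from the GENCODE vM21 annotation and promoter windows from RefSeq.

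All 11 libraries entered 1 fit with a mean per group: edgeR 4.0.16 in R 4.3.3, TMM scaling, filterByExpr with a minimum count of 10, robust quasi-likelihood F-tests and Benjamini-Hochberg adjustment at 0.05 over 14133 genes, which held 99.9% of counts. The SE was computed as |log2 fold change| over the root of the F statistic. The common biological coefficient of variation was 4.38%. The scripts were tested on simulated data. Replicates of a group differed beyond counting noise, with chi-square over its degrees of freedom at 2.11 or above. The pairs with scramble replicate 2 were at 15.3 and 13.8, and all others were at 3.87 or below. Alternatives were DESeq2 1.42.0, limma-voom (limma 3.58.1), another scaling, no filter, a replicate block, pairwise fits and leaving out each library. Members passing in a comparison are given in every library of the groups compared. From each list the 2 genes with the smallest adjusted p are named, or all of a list of 3. Nupr1, Mettl3, Mettl14, and Asns with other amino acid and one-carbon synthesis genes of the ATF4 list, are named besides. The values of some genes are not reported here. Members and lists were chosen with earlier results of these data known.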

Additional observations from a re-analysis of the deposited data

Results flagged for a closer look

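Among 74 groups of 4 libraries (37 genes in each knockdown), 5 held a library far from the other 3, by the gap to its neighbour over the group's range. Chance flags about 1 in 20 such groups. In M3KD, Gars was at 437 CPM in replicate 3 beside 430.2 to 430.4 in the others, Iars at 151 CPM in replicate 2 beside 141 to 142, and Cars2 at 18.9 CPM in replicate 3 beside 16.3 to 16.7. In M14KD, Farsb was at 108 CPM in replicate 3 beside 111 in the others, and Nars2 at 37.0 CPM in replicate 4 beside 36.1 to 36.3. Of these genes Iars passed the test against scramble, in M3KD, and without M3KD replicate 2 its log2 fold change was 0.12 (edgeR adjusted p = 0.0105).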

How the results depend on the processing

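No called gene reversed. Of 29 calls of single members, 12 held under all 17 alternatives and 17 ended under at least 1. In M14KD against scramble, 10 genes were called as fitted and 5 with only the 2 groups fitted, where cytosolic genes higher were 0 instead of 4. In M3KD against M14KD, 5 were called as fitted, 3 by DESeq2, 3 by limma-voom and 8 with only the 2 groups fitted; the last gave 4 cytosolic and 2 mitochondrial genes higher and 2187 instead of 1145 genes in all. DESeq2 gave 0 mitochondrial genes higher and 1 lower, limma-voom 1 cytosolic gene higher and 1 lower, and no filter on low counts 1 lower.

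Leaving out 1 library at a time gave these ranges. In M3KD against scramble, 11 to 17 genes were called, 3 to 8 mitochondrial genes were higher and 0 to 3 genes lower, and the mitochondrial median was 0.10 to 0.16. In M14KD against scramble, 7 to 12 were called, with 2 to 6 cytosolic and 3 to 5 mitochondrial genes higher and 1 to 2 lower. In M3KD against M14KD, 0 to 8 were called, with 0 to 4 cytosolic and 0 to 2 mitochondrial genes higher and 0 to 2 lower, 713 to 2125 genes in all, and a cytosolic median of 0.00924 to 0.0333.

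Libraries with the same replicate number correlated at −0.12 to 0.07 in their deviations from the group means, and others at −0.10 to 0.14, so the numbers were not taken as pairs. With the replicate block, 12 genes were called in M3KD against scramble, 6 in M14KD against scramble with 1 cytosolic gene higher, and 1 in M3KD against M14KD, with 0 cytosolic and 0 mitochondrial genes higher and 1 lower. The counts of the pathway lists without single libraries were added after seeing the data. Counts of at least 185 per member and library set the depth behind each value.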
